A study of Mus musculus with 12 samples.

Results

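Dicer deletion in resting macrophages was measured as a comparison of 3 Dicer knockout (KO) libraries with 3 control libraries, all from cells given vehicle. The libraries were chosen by their labels and make up 6 of the 12 in the series; the other 6 came from the same genotypes after lipopolysaccharide (LPS). Of 46078 gene identifiers counted, 13837 passed the filter on low counts and were tested. Macrophages were grown from the bone marrow of male C57BL/6 mice labelled LysMcre/+;Dicerfl/fl;ApoE-/- (KO) or LysMcre/+;Dicer+/+;ApoE-/- (littermate controls), so by label every cell lacked ApoE and carried the LysM-cre allele. Cre in these mice is driven from the Lyz2 (lysozyme M) gene, which is active in myeloid cells, so that floxed alleles are cut as the cells differentiate. Marrow cells spent 7 days in medium conditioned by L929 cells, a source of the growth factor M-CSF, were moved to serum-free medium, exposed overnight to dilute ethanol and then held for 6 h with phosphate-buffered saline as the vehicle. The sources used here state neither the ages of the mice nor that each replicate is a mouse of its own, so the p-values measure only the spread between these samples, which may be technical.

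Dicer is the ribonuclease that cuts precursor hairpins into mature microRNAs that are loaded into Argonaute proteins. A loaded Argonaute pairs the seed of its microRNA, bases 2 to 8, with sites in the 3' untranslated region (UTR) of messenger RNAs, and the targeted messages are translated less and decay faster. In macrophages, microRNAs of the let-7, miR-17, miR-142, miR-155 and miR-223 families are known for tuning maturation, inflammatory output and growth. The libraries here hold messenger and long noncoding RNA, and mature microRNAs were not measured.

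The gene that the alleles target was checked first. Dicer1 (chr12:104687742-104751952, minus strand, GRCm38) stood at 42.6, 45.3 and 43.1 CPM (read counts scaled to a common library size) in the control libraries and at 20.1, 19.7 and 19.4 CPM in the KO libraries. The groups did not overlap, and Dicer1 was 2.21-fold lower in KO cells (log2 fold change -1.15 ± 0.06, standard error, edgeR adjusted p = 1.47e-10). These are counts over the whole gene, and exons inside and outside the floxed part were not told apart. Lyz2 (chr10:117277331-117282321), the host gene of the Cre allele, read 6041, 5729.6 and 5370.5 CPM in controls and 15.6, 12.7 and 14 CPM in KO libraries, a 405-fold difference (edgeR adjusted p = 4.42e-20). The labels give the same LysM-cre genotype to both groups, so the Lyz2 values go against them. Any effect of the Cre allele cannot be told apart from that of Dicer loss in this design. Lyz1, the neighbouring lysozyme gene, was at 74.1 ± 3.7 CPM in controls and 71.8 ± 8.41 CPM in KO cells (SD, n = 3 each) and did not pass the test (edgeR adjusted p = 0.64; 0.0487, a called fall, with library totals in place of the trimmed mean scaling of edgeR, a log2 fold change of -0.17); because the lysozyme genes are close copies, their counts may share reads. Apoe, disrupted by label in all mice, was low throughout, at 17.5, 20.0 and 16.3 CPM in controls and 6.14, 4.94 and 5.74 CPM in KO cells, and fell 3.19-fold (edgeR adjusted p = 3.49e-09). Lcor, which encodes a ligand-dependent corepressor of nuclear receptors, rose 2.81-fold, from 5.71, 6.23 and 5.64 CPM to 17.5, 16.4 and 15.5 CPM (edgeR adjusted p = 2.47e-10).

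Markers of the labelled cell type were high. All 8 macrophage markers were detected, with summed levels of 7636 to 8337 CPM in control and 7510 to 8443 CPM in KO libraries. Inside that list, 3 markers rose and 4 fell, with Fcgr1, the high-affinity IgG receptor, moving furthest (229.6 ± 4.94 against 769 ± 127 CPM) and Cd14, the LPS coreceptor, falling 1.52-fold. Erythroid markers summed to at most 0.376 CPM, stromal markers to at most 1.40 CPM and mast cell and basophil markers to at most 1.91 CPM. Neutrophil markers summed to 101 to 135 CPM in controls and 94.3 to 125 CPM in KO libraries, with none of 9 called by edgeR and none at an unadjusted p under 0.05. Monocyte markers split: Plac8 and Ly6c2 rose, F13a1 fell, and the others did not pass the test. In bulk samples such as these, fewer cells of a type and less RNA per cell cannot be told apart.

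Library depth was even, from 16172600 to 18886948 counts in genes. Replicates were not equally alike. Control replicate 3 and KO replicate 2 stood apart from the other libraries of their groups: the chi-square per degree of freedom was 2.54 between control replicates 1 and 2 and 2.30 between KO replicates 1 and 3, against 8.40 to 14.1 for every pair that included control replicate 3 or KO replicate 2. Where these libraries decide a value it is given with and without them.

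Across all genes the genotype effect was broad. At an adjusted p under 0.05, 6394 genes differed (46.2% of those tested), of which 3459 were higher (25.0%) and 2935 were lower (21.2%) in KO cells; the 3 control values and the 3 KO values did not overlap for 7496 genes (54.2%). Most differences were small. A change of at least 2-fold was reached by 539 genes that rose (3.90%) and 421 that fell (3.04%). Lists of interferon-stimulated genes, p53 targets and hypoxia targets held 182 of the 3459 rises and 149 of the 539 rises of at least 2-fold. They also held 12 of the 421 falls of that size. The rest of the response, 390 rises and 409 falls of at least 2-fold, is the subject here. This split rests on list membership alone, so the rest may still hold genes that respond to interferon, p53 or hypoxia. The balance of rises and falls depended on scaling: with library totals in place of TMM factors (the trimmed mean scaling of edgeR), 2229 genes were higher (16.1%) and 4577 lower (33.1%), so the lower share of the calls went from 45.9% to 67.2%, and the median log2 fold change of all genes went from 0.008 to -0.118. Values below are on the TMM scale, where the median gene stayed near 0.

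**Figure D1:**
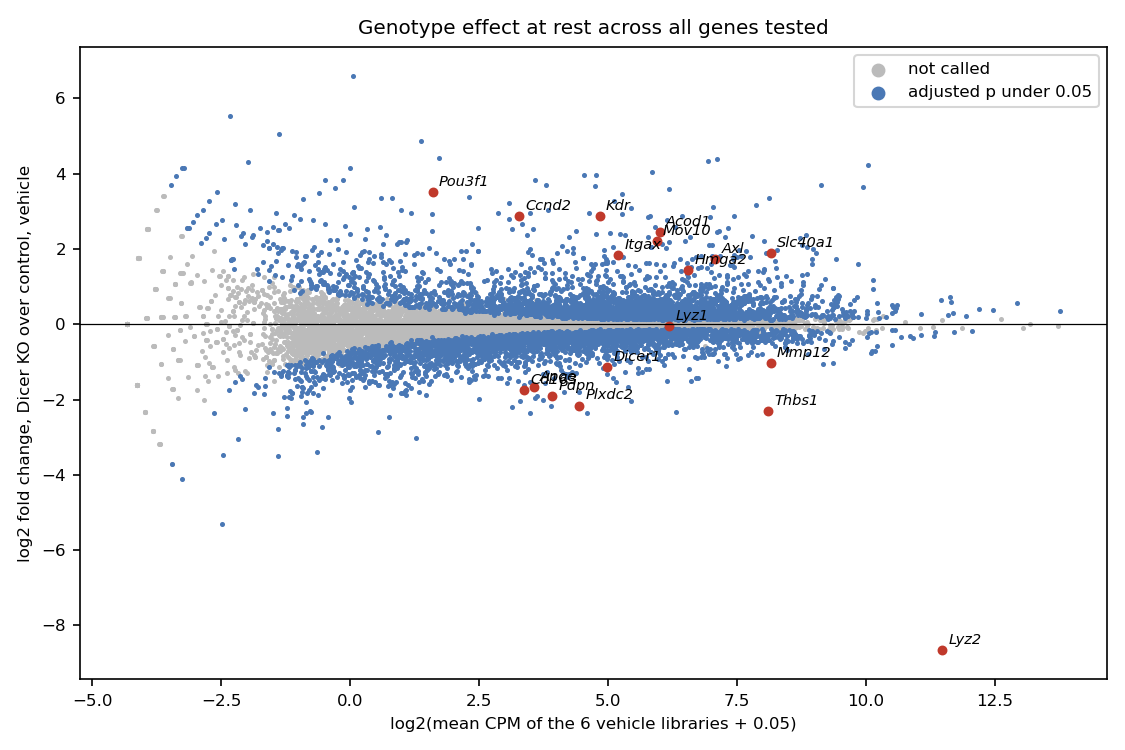
Log2 fold change (Dicer KO over control, vehicle) of each of the 13837 genes tested against the log2 of its mean CPM in the 6 vehicle libraries. Blue points passed an adjusted p of 0.05, grey points did not, and red points are some of the genes named in the text. Lyz2, at a log2 fold change of -8.66, lies far below the other abundant genes.

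Among genes outside those 3 lists, the largest rises included several receptors and secreted factors. Kdr, the VEGF receptor VEGFR2, read 6.03, 6.36 and 8.31 CPM in control libraries and 51.9, 40.1 and 58.9 CPM in KO libraries. This was a 7.3-fold rise (log2 fold change 2.87 ± 0.17, edgeR adjusted p = 2.10e-07). Kdr also marks endothelial cells, whose 5 markers summed to 7.41 to 9.36 CPM in controls and 41.9 to 60.3 CPM in KO libraries; besides Kdr, Emcn was at 0 in all 6 libraries and Tek was at most 0.0815 CPM. Cdh5 rose but reached at most 0.927 CPM, and Pecam1, at 1.09 ± 0.116 CPM in controls and 0.975 ± 0.204 CPM in KO cells, did not pass the test. Csf1, which encodes M-CSF, the growth factor of macrophages themselves, rose from 5.79, 6.93 and 7.19 to 29.7, 25.4 and 28.2 CPM (4.19-fold, edgeR adjusted p = 1.18e-11). Ccl4, a chemokine that draws in T cells and monocytes, rose from 19.5, 21.5 and 33.1 to 97.9, 116 and 108 CPM (4.35-fold, edgeR adjusted p = 9.10e-07). For both factors, as for Kdr, the lowest KO library was above the highest control, which the rule for naming them required.

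Some surface receptors of phagocytosis and adhesion were also among the large rises. Axl, a receptor tyrosine kinase that takes up dying cells through its bridging ligand Gas6, read 65.5, 65.3 and 58.2 CPM in controls and 221, 181 and 222.3 CPM in KO cells. Gas6 itself went from 450.4 ± 40.1 to 874 ± 96.1 CPM, so receptor and ligand were both higher, 3.31-fold and 1.94-fold (edgeR adjusted p = 1.18e-11 and 1.11e-08). Gas6 was chosen after its values were seen. Itgax (CD11c), an integrin chain best known from dendritic cells and some tissue macrophages, was at 14.2, 16.2 and 17.5 CPM against 55.7, 61.1 and 55.9 CPM, and Treml2, a TREM-family receptor, at 6.15, 6.31 and 6.56 CPM against 37, 25.1 and 32.2 CPM. These were rises of 3.6-fold and 4.97-fold. The groups did not overlap for either gene, which the rule for the largest rises required of Treml2. The 8 dendritic cell markers, a list without Itgax, summed to 1.98 to 2.17 CPM in controls and 2.99 to 5.17 CPM in KO cells. Of these markers 3 passed the filter on low counts and 2 rose, Xcr1 (0.405, 0.0815 and 0.418 CPM against 2.23, 0.772 and 1.77 CPM) and Ccr7 (0.364, 0.367 and 0.334 CPM against 0.884, 0.669 and 0.653 CPM), the last not called without KO replicate 1 (adjusted p = 0.056); the part of such cells in the rise of Itgax was not tested.

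Genes of metabolism were also among the large rises. Slc40a1, the iron exporter ferroportin, was the most abundant of them, at 131, 127 and 109 CPM in controls and 456, 474 and 419 CPM in KO cells (3.68-fold, edgeR adjusted p = 1.10e-12). Acod1, which makes itaconate from a citric acid cycle intermediate, read 18.5, 18.9 and 22.3 CPM in controls and 133, 69.6 and 124 CPM in KO cells (5.48-fold, edgeR adjusted p = 6.83e-06). KO replicate 2 was the lowest of its group. Fabp3, a fatty acid carrier, rose from 1.78, 1.79 and 2.8 to 14.5, 14.9 and 14.7 CPM, with KO values that barely differed among themselves. The nucleotidase gene Nt5c3 went from 22.2 ± 0.223 to 92.5 ± 18.3 CPM. Enpp4, a phosphodiesterase of the cell surface, rose 5.92-fold and the ADP-ribosyltransferase family member Art3 9.28-fold, both with KO replicate 2 lowest in its group (12, 5.51 and 10.7 CPM and 19.3, 9.42 and 17.2 CPM).

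The other large rises were spread over functions. Pou3f1, a POU-domain transcription factor, was barely detected in controls at 0.405, 0.326 and 0.71 CPM and read 5.4, 5.2 and 5.88 CPM in KO cells, the largest fold change of this group (11.3-fold, edgeR adjusted p = 8.49e-10). Ccnd2, the D-type cyclin that drives entry into the cell cycle, rose from 1.94, 2.57 and 2.51 to 20.1, 12.5 and 18.3 CPM (7.28-fold, edgeR adjusted p = 1.50e-08). Mov10, an RNA helicase found with Argonaute proteins, was at 19.7, 21.9 and 24.6 CPM against 111, 91.1 and 102 CPM (4.6-fold, edgeR adjusted p = 2.11e-12). Tmem178, Rab15, Srpk3, Mid1 and Lox, the last an enzyme that crosslinks collagen, rose 3.83- to 7.68-fold from control means of 0.672 to 4.46 CPM. Lrrc14b rose from 12 ± 1.4 to 62.8 ± 1.12 CPM, but it lies wholly within Ccdc127, which is on the opposite strand and also rose (40.5 ± 1.01 to 97.1 ± 5.08 CPM); it is not known from the labels whether counting used strand, so reads of these genes cannot be told apart.

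**Figure D2:**
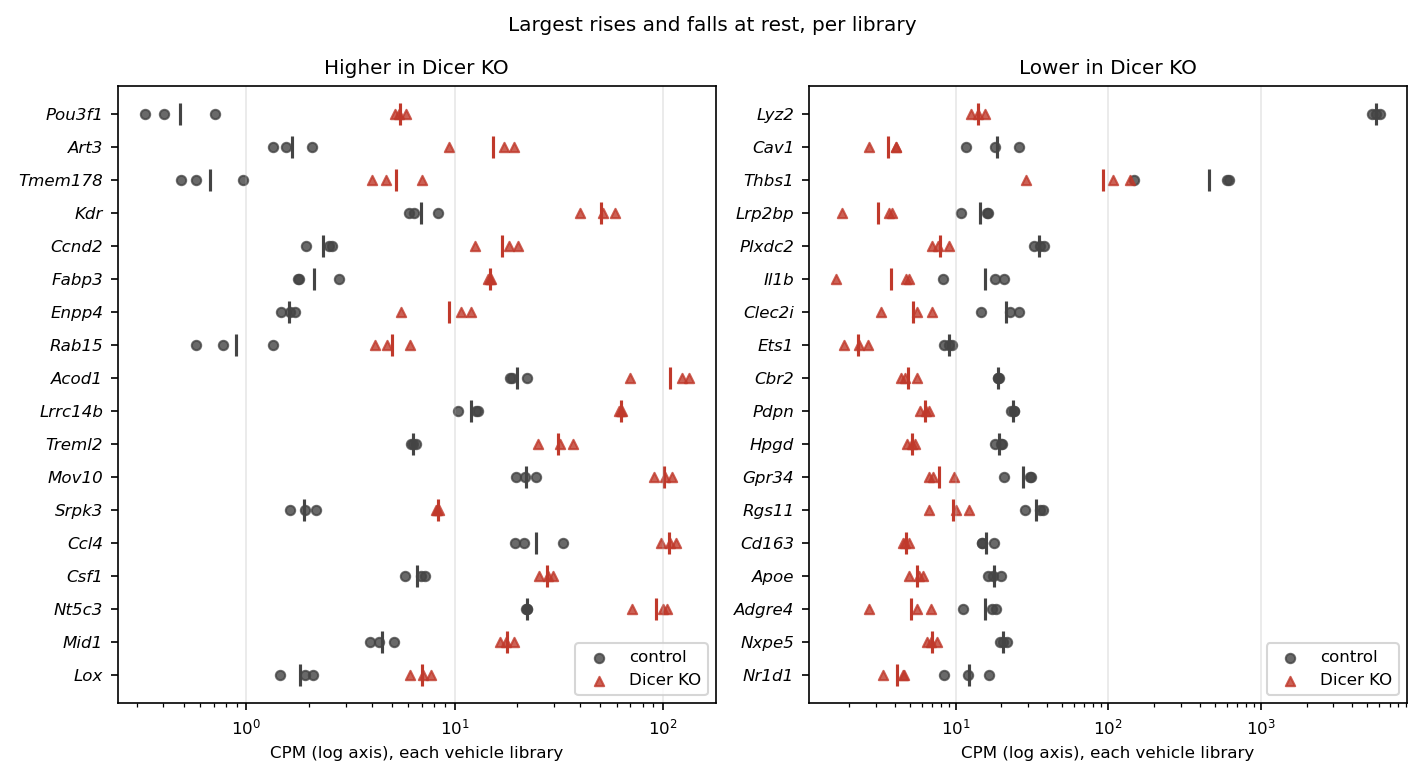
CPM on a log axis in each of the 3 control (grey circles) and 3 Dicer KO (red triangles) vehicle libraries for the 18 largest rises (left) and 18 largest falls (right) outside the interferon, p53 and hypoxia lists, with vertical ticks at the group means. No group pair overlaps, which the rule for naming required. Thbs1 comes closest, with control replicate 3 just above the highest KO library.

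Among the largest falls after Lyz2 were genes of the cell surface and matrix. Plxdc2, a plexin-domain receptor, read 37.9, 35.8 and 32.6 CPM in controls and 9.03, 7.0 and 7.65 CPM in KO cells (4.47-fold lower, edgeR adjusted p = 1.35e-11). Pdpn, podoplanin, a mucin-like ligand of the platelet receptor CLEC-2, went from 24.2, 24.1 and 23.1 to 6.7, 5.82 and 6.39 CPM, with a spread inside each group far smaller than the gap (3.77-fold lower, edgeR adjusted p = 2.11e-12). Cav1, the main coat protein of caveolae, was at 26.2, 18.2 and 11.7 CPM against 4.1, 2.73 and 4.06 CPM, and Cav2 at 98.8 ± 1.1 against 69 ± 3.53 CPM. Mmp12, macrophage elastase, fell 2.04-fold from a high level (383 ± 25.4 to 188 ± 3.11 CPM).

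Some genes known as markers of resident or alternatively activated macrophages were also among the falls. They were picked from the falls, and no list of such markers was fixed. Not every gene of that kind fell: Mertk and Chil3 had log2 fold changes of 0.01 and 0.19 (edgeR adjusted p = 0.89 and 0.052). Cd163, the scavenger receptor for haemoglobin and haptoglobin, went from 15, 17.8 and 14.9 to 4.98, 4.53 and 4.67 CPM (3.35-fold lower, edgeR adjusted p = 8.28e-10). Folr2, folate receptor beta, went from 139, 146 and 172 to 56.8, 52.2 and 60.7 CPM (2.69-fold lower, edgeR adjusted p = 6.62e-11), although 63.1% of its exon bases overlap exons of genes on the opposite strand. Cbr2, a carbonyl reductase, went from 19 ± 0.103 to 4.88 ± 0.608 CPM, and Gpr34, a receptor for lysophosphatidylserine, from 27.5 ± 5.9 to 7.85 ± 1.64 CPM. Each of these genes was lower in all 3 KO libraries than in any control, which the rule for naming them required.

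Signalling and enzyme genes made up the rest of the largest falls. Hpgd, the enzyme that inactivates prostaglandins, was at 20.0, 19.9 and 18.1 CPM against 5.44, 5.2 and 4.81 CPM (3.75-fold lower, edgeR adjusted p = 1.91e-07). Ets1, a transcription factor, was at 9.51, 9.04 and 8.44 CPM against 1.86, 2.68 and 2.33 CPM (3.94-fold lower), Padi2, which converts arginine to citrulline in proteins, at 66.1 ± 2.11 against 29.4 ± 0.523 CPM, and the circadian repressor gene Nr1d1 at 16.5, 12 and 8.36 CPM against 4.61, 3.35 and 4.53 CPM. Lrp2bp, Clec2i, Rgs11, Adgre4 and Nxpe5 fell 2.94- to 4.57-fold.

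For a subset of the falls the libraries that stood apart mattered. Thbs1, the matrix glycoprotein thrombospondin 1, read 624, 598 and 149 CPM in controls and 140.3, 29 and 107 CPM in KO cells, so control replicate 3 lay near KO replicate 1. Its log2 fold change was -2.31 ± 0.63 (edgeR adjusted p = 0.016); leaving out control replicate 1 or control replicate 2 ended the call (adjusted p = 0.053 and 0.052), as did a fit of the vehicle libraries alone (adjusted p = 0.083), and without both libraries that stood apart it was -2.30 (adjusted p = 3.6e-09). Il1b, interleukin 1 beta, had the same arrangement at 20.7, 18 and 8.23 CPM against 4.98, 1.65 and 4.76 CPM, with a log2 fold change of -2.03 in all libraries and -1.99 without those libraries. The monocyte marker F13a1, coagulation factor XIII A, was at 189, 176 and 105 CPM against 75.4, 35.3 and 62.9 CPM. For all 3 genes control replicate 3 was the lowest control and KO replicate 2 the lowest KO library.

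Fixed gene lists and symbol families were then read as counts of members that passed the test, beside the 25.0% higher and 21.2% lower among all genes. Of the microRNA pathway, 24 genes were tested, 10 rose and 4 fell, with a median log2 fold change of 0.13. Dicer1, the deleted gene itself, is on this list and among its falls. The scaffold gene Tnrc6a (GW182), which links Argonaute to deadenylases, rose from 86 ± 4.69 to 137 ± 1.75 CPM, Ago4 fell from 57.9 ± 4.75 to 35.8 ± 1.21 CPM, Prkra (PACT), a Dicer partner, fell 1.42-fold and Xrn1, a 5' to 3' exonuclease, rose 1.4-fold. With library totals the counts were 8 and 5 and the median was 0.00. Of 35 deadenylation and decay genes 7 rose and 10 fell (3 and 15 with library totals); Dcp2, the decapping enzyme, rose 2.09-fold. Host transcripts of microRNAs showed no common direction, with 8 of 32 higher and 9 lower (6 and 14 with library totals). F630028O10Rik, which spans the miR-223 hairpin, fell from 71.5, 78.5 and 73.4 to 32.9, 31.1 and 33.3 CPM (2.29-fold, edgeR adjusted p = 1.82e-10), and Copz2, host of miR-152, fell 2.11-fold.

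Outside the interferon list and the interferon-induced Schlafen family, the largest median was that of textbook oncofetal let-7 targets: 12 of 18 rose and none fell (median 0.48; 9 and 0 with library totals, median 0.36; 11 and 0 with DESeq2). At an unadjusted p under 0.05 the counts were 14 and 0. Hmga2, an architectural chromatin protein of embryonic tissue, read 45.1, 46.4 and 61.1 CPM in controls and 117, 161 and 136 CPM in KO cells (2.71-fold, edgeR adjusted p = 5.85e-06). Igf2bp2, an RNA-binding protein that stabilises messages, rose from 33.3, 35 and 39.5 to 82.9, 89.9 and 83.9 CPM, Cdc34, a ubiquitin-conjugating enzyme, from 27.3 ± 1.15 to 54.3 ± 3.19 CPM, and Arid3a from 49.1 ± 4.3 to 76.9 ± 2.56 CPM. Ccnd2 is on this list too, yet its longest annotated 3' UTR, 5173 bases, held no match to the let-7 seed.

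Subunits of the proteasome and the V-ATPase and regulators of actin shifted by small amounts, mostly upward. Of 38 proteasome subunits 27 rose and none fell (median 0.24; 15 and 1 with library totals, median 0.11; 27 and 0 with DESeq2); at an unadjusted p under 0.05 the counts were 29 and 0. Among them were the immunoproteasome subunits Psmb8, Psmb9 and Psmb10, which are also on the interferon list (2.0- to 2.38-fold), and subunits of the constitutive core such as Psma3 (49.8, 51.3 and 58 CPM against 74.6, 74 and 74.3 CPM). Of 16 subunits of the V-ATPase, the proton pump of lysosomes, 14 rose and 1 fell (median 0.30; 8 and 1 with library totals, median 0.18), with Atp6v0a2 at 43.5 ± 1.59 against 69.3 ± 1.56 CPM and Atp6v1a at 678 ± 69.6 against 988 ± 78 CPM. Actin and podosome regulators numbered 42 higher and 10 lower of 72 (median 0.18; 22 and 12 with library totals, median 0.06). Wasl (N-WASP) and Actr2 (ARP2), which build branched actin, rose 1.73- and 1.52-fold, the kinase gene Src 1.82-fold, while Dock2, a Rac activator needed for migration, fell from 226, 233 and 262 to 126, 132 and 126 CPM.

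Other lists held rises and falls side by side. Of 55 phagocytic and scavenger receptors, 14 rose and 19 fell (median 0.00; 12 and 23 with library totals), and of 33 macrophage surface markers 15 rose and 12 fell (median 0.02; 11 and 13 with library totals). Clec7a (dectin-1), a receptor for fungal glucans, rose from 76.7 ± 2.82 to 144 ± 5.05 CPM while Cd163 fell. Among 50 receptors for chemotactic and lipid mediators, 18 rose and 19 fell (15 and 22 with library totals). Ptafr, the receptor for platelet-activating factor, rose from 181, 194.6 and 239 to 496, 516 and 492 CPM and Hcar2, a receptor for niacin and ketone bodies, 3.02-fold, whereas Cxcr4, the receptor for CXCL12, fell from 147, 136 and 121 to 77.4, 66.9 and 75 CPM and Ptger2, a prostaglandin E2 receptor, fell 2.89-fold. Prostaglandin enzymes split likewise: 3 of 16 rose and 6 fell (2 and 9 with library totals), with Hpgds, a prostaglandin D2 synthase, higher (179 ± 36.2 to 346 ± 22.2 CPM) and Hpgd lower.

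Lists of transcription factors and chromatin regulators held rises and falls. Of 47 macrophage transcription factors 10 rose and 16 fell (median -0.10; 9 and 23 with library totals). Rxra, a nuclear receptor partner, fell from 72.8 ± 2.43 to 47.6 ± 0.807 CPM, and Klf4 from 17.5 ± 1.12 to 10.4 ± 0.44 CPM. Id2, an inhibitor of helix-loop-helix factors, rose 1.46-fold. Among 59 chromatin regulators, 17 rose and 12 fell (10 and 19 with library totals), shares near those of all genes; Dnmt3a, a de novo DNA methyltransferase, rose from 165, 174 and 207 to 416, 466 and 431 CPM, and Cbx7, a Polycomb reader, fell from 25.9, 24 and 18.4 to 11.1, 9.68 and 11 CPM. Zinc finger genes of the Zfp family had 30 rises and 75 falls among 325 tested (median -0.11; 14 and 125 with library totals, 25 and 48 with DESeq2). Extracellular matrix and protease genes had 14 rises and 21 falls among 57 (median -0.24; 11 and 28 with library totals), with Adam19 higher (2.67-fold) and Mmp12 lower.

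Host transcripts of small nucleolar RNAs had the lowest median of the lists and families outside the hypoxia targets. Of 13 tested, 1 rose and 8 fell (median -0.43; 1 and 10 with library totals). Gas5 read 36.6, 36.2 and 35.4 CPM in controls and 26.6, 21.9 and 24.5 CPM in KO cells, Snhg5 7.73, 6.31 and 7.06 CPM against 3.49, 4.07 and 4.01 CPM and Snhg8 5.3 ± 0.628 against 3.39 ± 0.353 CPM, with no overlap for any of them. The 61 ribosome biogenesis genes did not share that direction, with 14 higher and 5 lower (7 and 10 with library totals, 28 and 5 without control replicate 3, and 21 and 4 without both libraries that stood apart).

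Cell cycle lists depended on control replicate 3. In that library the mitosis genes were high as a group: their median deviation from the control mean was -0.23, -0.28 and 0.51 in the 3 control libraries and -0.29, 0.23 and -0.09 in the KO libraries, on the log2 scale. Of 59 mitosis genes 1 rose and 4 fell in the full set. Without control replicate 3 there were 13 rises and 3 falls, and without both libraries that stood apart 9 and 7. Cenpa, the centromeric histone, fell from 50.1, 47.8 and 37.3 to 18.3, 19 and 17 CPM. DNA replication genes had 9 rises and 3 falls among 52 (3 and 5 with library totals, 22 and 3 without control replicate 3, and 17 and 2 without both libraries that stood apart), and 12 of 33 G1 regulators rose and 9 fell, led by Ccnd2.

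**Figure D3:**
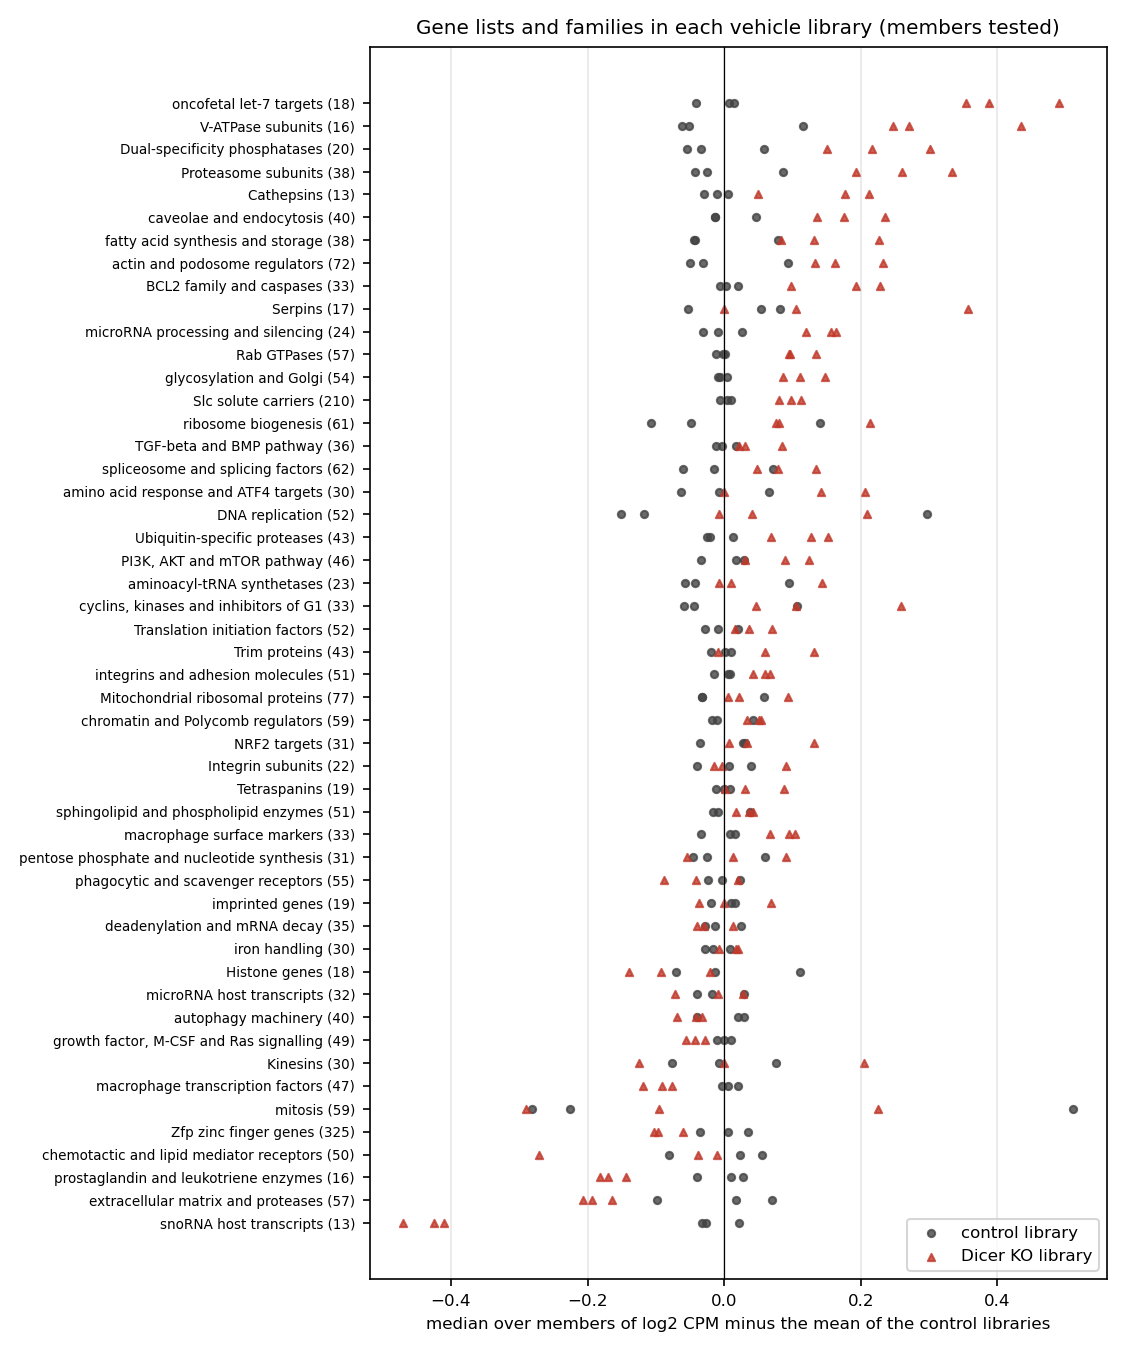
For lists and families outside the interferon, p53, hypoxia and Schlafen sets (1 further family is not shown; number of members tested in brackets), the median over members of log2 CPM minus the mean of the control libraries, in each of the 3 control (grey circles) and 3 Dicer KO (red triangles) libraries, sorted by the median log2 fold change. The let-7 target, V-ATPase and proteasome lists lie to the right of all controls and the small nucleolar RNA hosts to the left, while control replicate 3 lies far right for mitosis.

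Loss of Dicer removes the source of mature microRNAs, so 3' UTRs were searched for matches to their seeds. The representative mature sequences of the families described are given with the seed in capitals, from RefSeq (GRCm38.p6).
let-7a-5p: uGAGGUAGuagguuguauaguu
miR-16-5p: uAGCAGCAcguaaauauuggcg
miR-17-5p: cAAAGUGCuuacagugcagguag
miR-142a-3p: uGUAGUGUuuccuacuuuaugga
miR-223-3p: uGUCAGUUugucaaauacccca
A match was called where a 3' UTR held the reverse complement of the seed (CTACCTC for let-7), or the same followed by an A, which is the stronger site type (CTACCTCA, termed 8mer).

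A 3' UTR of at least 30 bases was annotated for 11719 of the genes tested, of which 26.7% were higher and 22.2% lower. The length of the 3' UTR moved with the outcome: of 1712 genes with a 3' UTR under 300 bases 18.05% rose and 27.8% fell, whereas of 2570 genes with 2000 to 4000 bases 32.8% rose and 19.5% fell. Of 435 genes with a let-7 8mer match 36.8% rose and 14.5% fell (median 0.09). The 21 genes with several such matches numbered 12 rises and 3 falls (median 0.32). Families known from other tissues held such counts too: for the miR-200b family, known from epithelia, 18 of 27 genes with several 8mer matches rose and 2 fell (median 0.30). Across 24 families of microRNAs known in macrophages, the median log2 fold change of genes with any match exceeded that of genes without by -0.01 (miR-191) to 0.07 (miR-142-3p), with a median of 0.05. For 8 families known from other tissues the same difference ran from -0.04 to 0.05, with a median of 0.03, so the ranges overlapped. Within 3' UTRs of 500 to 2000 bases the medians were 0.02 and 0.01. For genes with several 8mer matches, of which miR-208 had none, they were 0.09 in macrophage families and 0.14 in families from other tissues.

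**Figure D4:**
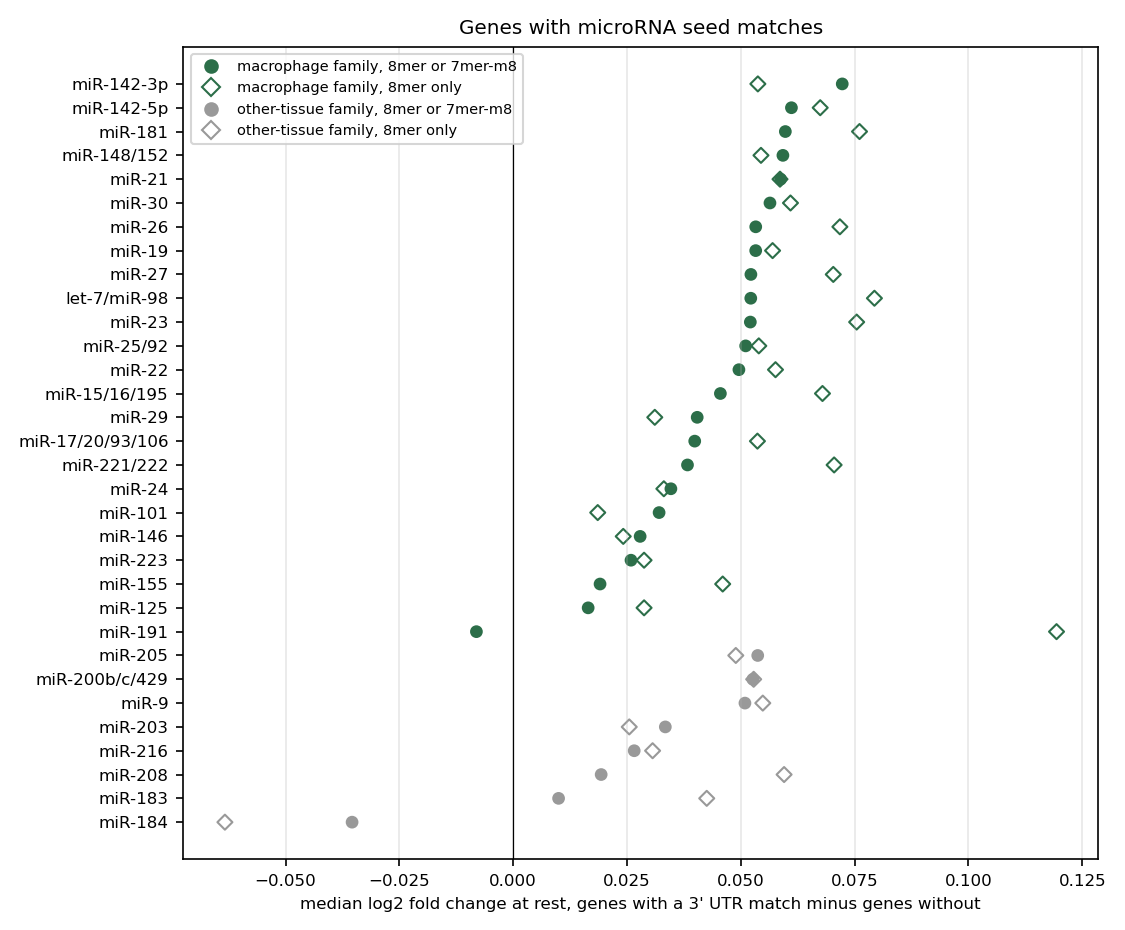
Median log2 fold change of genes with a seed match minus that of genes without, for 24 macrophage families (green) and 8 families known from other tissues (grey), with circles for any match and open diamonds for 8mer matches. Most families lie to the right of 0 and the grey points overlap the green range; miR-184 lies to the left.

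Let-7 sites of genes that rose are shown because several of these genes are described here, as 30-base windows on the sense strand with the 8mer in capitals (GRCm38). Trim6, a tripartite-motif ubiquitin ligase, holds 5 sites, each 45 bases from the next, of which the first and last are printed.
Trim6, chr7:104233462-104233491, plus strand: tgattatagatCTACCTCAcagtgcctgac
Trim6, chr7:104233642-104233671, plus strand: tgattatagctCTACCTCAcagcgcctgac
Hif1an, chr19:44573357-44573386, plus strand: ctgttggttctCTACCTCAcctcaagcctt
Ptafr, chr4:132580935-132580964, plus strand: aagagagatggCTACCTCAgggcactgcac
Hmga2, chr10:120364213-120364242, minus strand: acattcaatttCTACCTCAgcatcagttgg
Igf2bp2, chr16:22059462-22059491, minus strand: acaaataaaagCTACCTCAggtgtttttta
Trim6 rose from a low level, 2.02, 2.57 and 1.75 CPM in controls and 4.05, 3.24 and 3.45 CPM in KO cells (1.69-fold, edgeR adjusted p = 0.0019). Hif1an, the asparagine hydroxylase that inhibits HIF-1, rose from 49.2, 48 and 45.7 to 73.8, 75.1 and 75.1 CPM (1.57-fold, edgeR adjusted p = 1.13e-08). Ptafr and the oncofetal genes Hmga2 and Igf2bp2 are described above. These matches are descriptions of sequence and were not tested as binding sites.

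For the other families, genes that rose and held several 8mer matches are given as examples. They were taken only from the rises. Of all genes with several 8mer matches to miR-17, 10 of 22 rose and 3 fell. The counts were 9 of 14 and 0 for miR-142-3p, 12 of 20 and 4 for miR-15/16, and 8 of 21 and 2 for miR-223. Beside these stand 26.7% higher and 22.2% lower of all genes with a 3' UTR. For miR-17, Tmcc3 (3 matches) rose from 25.9, 26.9 and 25.7 to 76.8, 65.3 and 69.4 CPM and Ankrd52, a regulatory subunit of protein phosphatase 6, 2.12-fold. For miR-142-3p, Arhgap35, a GTPase-activating protein, rose 1.86-fold and Nampt, the rate-limiting enzyme of NAD salvage, 1.57-fold. For miR-15/16, Traf3, an adaptor of immune receptors, had 3 matches and rose 1.13-fold (edgeR adjusted p = 0.041). The call of Traf3 was lost with library totals (adjusted p = 0.59), with DESeq2 (0.062), with no filter (0.12), in the vehicle libraries alone (0.085), without both libraries that stood apart (0.065) and without control replicate 1, control replicate 2 or KO replicate 2 (0.10, 0.17 and 0.21). With fewer matches to miR-15/16, Knop1 rose 2.32-fold and Actr2 1.52-fold. For miR-223, Abl2, an actin-regulating kinase, rose 1.56-fold and Tent5a, a poly(A) polymerase, 1.99-fold.

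Genes near the engineered loci were counted apart. Within 5 Mb of Dicer1, 19 of 50 genes tested rose and 7 fell (52.0% called); near Lyz2 17 of 39 rose and 3 fell (51.3%; 35.0% within 2 Mb), and near Apoe 19 of 93 rose and 21 fell (43.0%), beside 46.2% of all genes and 41.5% to 48.6% by chromosome. Hmga2, described above, starts 3.08 Mb from Lyz2, and its neighbourhood also held Dyrk2, a kinase, which rose 1.79-fold. Near Dicer1 the 3 rises of at least 2-fold were of genes under 3 CPM, such as Serpina3g (0.283, 0.122 and 0.209 CPM against 2.37, 1.03 and 2.05 CPM). The 1 fall of that size there was of Ifi27, a gene on the interferon list, from 63.8 ± 5.9 to 20.2 ± 1.02 CPM; it was named after its values were seen.

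Long noncoding genes were ranked without predicted and clone-named genes (Gm, Rik and similar), at 5 CPM or more and with no overlap of groups. Among those left, the largest rises were of antisense transcripts. Slfn5os rose 4.16-fold and Dhx58os 4.05-fold; both lie opposite interferon-induced genes, and where exons overlap their reads cannot be told apart from those of their partners. Fcnaos, Dnmt3aos and Adap2os rose 1.71- to 1.95-fold. Among genes left out, the antisense 1700006J14Rik rose more than Fcnaos, Dnmt3aos and Adap2os (log2 fold change 1.19, from a mean of 4.32 to 9.86 CPM). Dubr fell from 48.2, 50.8 and 42.6 to 24.4, 20.5 and 22.6 CPM, the imprinted Peg13 from 37.4, 37.1 and 32.9 to 19.5, 19 and 19.7 CPM and Cep83os 1.83-fold. Promoters were searched for GAAANNGAAA, the core of the interferon-stimulated response element, on both strands from 250 bases before to 50 bases after the RefSeq start (GRCm38.p6). It was present in 3.99% of 27025 promoters and in 43.9% of 132 interferon-list promoters. None of the 13 promoters matched among the 18 largest rises held it, nor any of the 13 among the 18 largest falls. At a share of 3.99% over all promoters, 13 are too few for an absence to be informative. For protein-coding genes outside the 3 lists, it was present in 9.09% of 209 promoters of rises of at least 2-fold. The share was 4.74% of 253 for falls of that size, and 3.0% of 4800 for protein-coding genes not called. This search was chosen after the data were seen.

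The same genotypes after 6 h of LPS gave a comparison that shares no library with the resting one. After LPS 7724 genes differed between genotypes (55.8%), 3983 higher (28.8%) and 3741 lower (27.0%). Of the 6394 genes called at rest, 3851 were called in the same direction after LPS, 546 in the opposite direction and 1997 were not called. The difference of the genotype effects itself was called for 4669 genes (33.7%), 2602 of them among the genes called at rest. All of the 18 largest rises kept their sign and 17 were called again. For 11 of the 18 the effect was smaller after LPS by the test of the difference. These genes were chosen for extreme values at rest, and the test of the difference uses the same resting values. Some shift towards 0 therefore follows from the choice itself, and its share was not tested. Kdr had a log2 fold change of 1.03 ± 0.13 after LPS against 2.87 ± 0.17 at rest (difference -1.84, edgeR adjusted p = 8.61e-05), and Acod1 0.59 ± 0.18 against 2.45 ± 0.21 (difference -1.86, adjusted p = 5.57e-04). Acod1 itself reached 8183 ± 343 CPM in controls and 12313 ± 463 CPM in KO cells after LPS. Csf1 had nearly the same value in both states, 2.08 ± 0.08 and 2.07 ± 0.09, with a difference of 0.01 that was not called.

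Slc40a1 went the other way, with a larger effect after LPS. Its log2 fold change was 4.25 ± 0.14 after LPS against 1.88 ± 0.07 at rest (difference 2.37, edgeR adjusted p = 1.46e-08), at 1.44 ± 0.224 CPM in controls and 27.4 ± 1.48 CPM in KO cells given LPS. Of the 18 largest falls, 14 kept their sign after LPS and 13 were called again. The difference was called for 8, towards 0 in 6, and the falls too were chosen for extreme values at rest. Pdpn was 0.06 ± 0.05 after LPS against -1.91 ± 0.07 at rest (difference 1.97, adjusted p = 7.45e-11), and Thbs1 was 0.78 ± 0.64 after LPS, not called (adjusted p = 0.33). Plxdc2 and Cbr2 fell as much in both states by their values (-2.36 and -1.95 after LPS), and their differences were not called. Cxcr4 and Klf4 turned: each was lower in KO cells at rest and higher after LPS (0.86 and 1.19), with differences of 1.74 and 1.94 (edgeR adjusted p = 6.63e-06 and 2.03e-08).

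**Figure D5:**
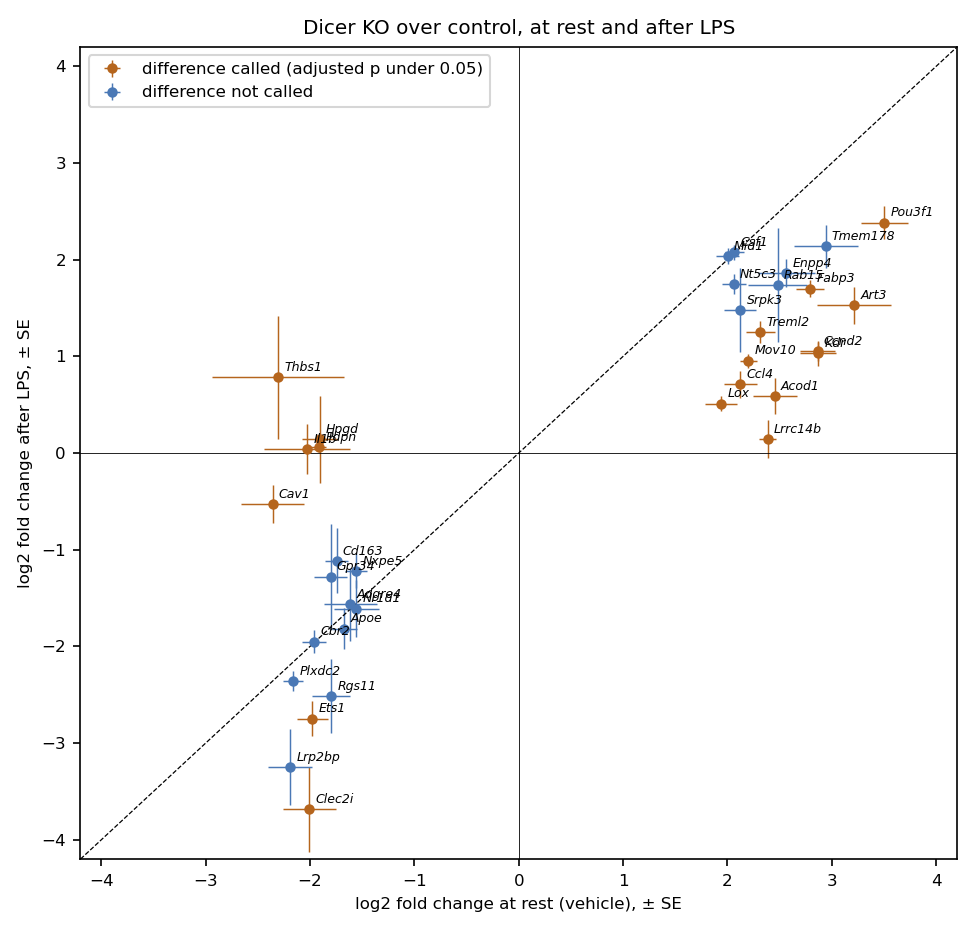
Log2 fold change (Dicer KO over control, ± standard error) at rest on the x axis and after LPS on the y axis for the largest rises and falls, without Lyz2. Orange points are those with a called difference between the states and blue points those without; the dashed line marks equal effects. The genes were chosen by their values at rest. The rises lie near or under the line, and Thbs1, Il1b, Hpgd and Pdpn lie near or above 0 after LPS.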

How the data were processed

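RNA was measured by stranded, poly(A)-selected sequencing of 12 libraries (3 for each genotype and treatment). Raw read counts per Ensembl gene were deposited as whole numbers; STAR 2.5 and DESeq2 are named in the submitters' processing notes with the builds mm10 and GRCm38.p5, while the counting tool, its use of strand and its gene annotation version are not named there or in the labels. The 5 rows that name no gene were left out; reads assigned to no feature made up 46.1% to 46.8% of the total in the vehicle libraries. Of 46078 identifiers 45229 matched GENCODE M21, which supplied symbols, coordinates and 3' UTRs; 0.141% of counts were unmatched.

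Counts were fitted with edgeR 4.0.16 (R 4.3.3; TMM factors, filterByExpr, robust quasi-likelihood) over all 12 libraries with 1 mean per group, and p-values were adjusted by Benjamini-Hochberg over all 13837 genes tested, with a call at an adjusted p under 0.05. Errors of fold changes are standard errors, CPM were computed on TMM-adjusted totals, and values with ± and CPM are mean and SD (n = 3). The procedure was run on simulated counts with few changed genes, balanced in direction, and the same spread for every gene. Those settings are simpler than these data. The run therefore says nothing about broad changes, the choice of scaling or the libraries that stood apart. Genes named were the 18 largest rises and 18 largest falls outside the 3 lists (at least 5 CPM, protein-coding, no overlap of groups), those with the smallest adjusted p overall and in each list or family, neighbours of the engineered loci within 5 Mb, noncoding genes and genes with the most 8mer matches; some genes that this rule names are not reported here. Predicted and clone-named genes (Gm, Rik and similar) were left out of the largest changes, of the noncoding genes and of the match examples. Members and lists (38 lists, 18 families) were chosen with earlier results of these data known. The biological coefficient of variation was 6.30%. Replicate numbers did not pair the libraries: deviations of same-numbered vehicle libraries correlated at 0.18, -0.23 and -0.09. The largest correlation of any control with any KO vehicle library was 0.34. It was that of control replicate 3 with KO replicate 2, the libraries that stood apart, and a pairing under other numbers was not tested. Alternatives were DESeq2 1.42.0, other scaling, no filter, the vehicle libraries alone, a replicate block and leaving out libraries.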

Additional observations from a re-analysis of the deposited data

Results flagged for a closer look

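A difference between the genotype effect after LPS and that at rest was called by the edgeR test of the difference (adjusted p under 0.05, over all genes tested) for 66 of the 127 genes named. Beside this stand 4669 of all 13837 genes tested (33.7%) and 2602 of the 6394 called at rest. Most of the genes named were chosen for large or clear effects at rest, which also enter the difference. The counts below reflect that choice as well. Values are the effect after LPS minus the effect at rest, as log2.

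For 34 genes that were higher in KO cells at rest, the effect was lower after LPS. The largest such shifts, on the log2 scale, were Lrrc14b by -2.24, Gdf15 by -2.14, Acod1 by -1.86, Kdr by -1.84, Ccnd2 by -1.81, Art3 by -1.69 and Ccdc127 by -1.59. Then came Lox by -1.43, Ccl4 by -1.41, Dhx58os by -1.41, Mov10 by -1.24, Slfn5os by -1.23, Pou3f1 by -1.12 and Fabp3 by -1.09. Shifts of middling size were those of Treml2 by -1.06, Ankrd52 by -1.0, Fcgr1 by -0.95, Knop1 by -0.87, Hpgds by -0.85, Slc25a22 by -0.84 and Arhgap35 by -0.83. Next were Dnmt3a by -0.75, St3gal6 by -0.67, Adam19 by -0.66, Cdc34 by -0.66, Psmb10 by -0.63, Psmb9 by -0.60 and Axl by -0.48. Smaller ones were Psmb8 by -0.43, Tmcc3 by -0.35, Abl2 by -0.30, Itgav by -0.25, Atp6v0a2 by -0.25 and Wasl by -0.24.

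For 7 genes that rose at rest, the effect was larger after LPS. They were Slc40a1 by 2.37, Itgb3 by 1.35, Hmga2 by 1.28, Adap2os by 0.71, Traf3 by 0.63, Clec7a by 0.34 and Xrn1 by 0.23.

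For 19 genes that fell at rest, the effect after LPS was higher, that is nearer 0 or of the other sign. They were Thbs1 by 3.09, Il1b by 2.07, Hpgd by 2.05, Pdpn by 1.97, Klf4 by 1.94, Cav1 by 1.83 and Cxcr4 by 1.74. The next were Cenpa by 1.02, Lyz2 by 0.91, Cbx7 by 0.80, Ifi27 by 0.73, St8sia4 by 0.59, F630028O10Rik by 0.56 and Cd14 by 0.50. The remaining genes were Ago4 by 0.45, Padi2 by 0.44, Dubr by 0.38, Cav2 by 0.36 and Folr2 by 0.31.

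For 5 genes that fell at rest, the fall was deeper after LPS. These were Clec2i by -1.68, Peg13 by -1.28, Ets1 by -0.77, Rxra by -0.68 and Dicer1 by -0.52.

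For 1 gene not called at rest the difference was called. It was Pecam1 by 0.75.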

How the results depend on the processing

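With library totals in place of TMM factors, 2229 genes were higher and 4577 lower at rest, 1885 higher and 7626 lower after LPS, and the difference of the genotype effects was above 0 for 997 genes and below 0 for 5136. The other settings, DESeq2, RLE size factors, no filter and the vehicle libraries alone among them, kept these counts within 1.5 times. Leaving out 1 vehicle library at a time gave 2919 to 3785 genes higher and 2335 to 3165 lower at rest, 528 to 609 and 365 to 532 at 2-fold or more, 3924 to 4103 higher and 3691 to 3901 lower after LPS, and 1808 to 2206 and 2277 to 2815 for the difference. With replicate number as a block, 3431 genes were higher and 2879 lower; since the numbers do not pair the libraries, this is given only for completeness. For seed matches, the median difference was 0.0217 in 3' UTRs of 500 to 2000 bases for macrophage families and 0.00656 for other families, and 0.0457 for other families with 8mer matches alone. Lyz1, at -0.04 in the full set, ranged over the sets without 1 library from -0.124 (without KO replicate 1) to 0.0429 (without KO replicate 2), and was -0.17 with library totals, where it was called (adjusted p = 0.0487). The cause was not tested for any of these. The 3 libraries a group limit the precision of every fold change.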

Other observations

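Several further gene groups held changes at rest that follow no single direction. Of 33 BCL2 family and caspase genes 15 rose and 7 fell (11 and 12 with library totals). Casp1, the inflammasome protease, rose from 86.1, 87.1 and 92.3 to 182, 173 and 187 CPM, and Bak1, a pore-forming death effector, rose 1.58-fold. Of 210 solute carriers 71 rose and 45 fell (49 and 65 with library totals), with Slc30a1, a zinc exporter, 2.24-fold higher and the mitochondrial glutamate carrier Slc25a22 3.08-fold higher. In the PI3K, AKT and mTOR pathway 20 of 46 genes rose and 8 fell (16 and 16 with library totals). Phlpp2, a phosphatase of AKT, rose from 8.2 ± 0.565 to 19.1 ± 0.743 CPM, and Castor1, an arginine sensor of mTORC1, fell from 7.59 ± 1.46 to 2.92 ± 0.443 CPM.

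Sialyltransferases moved apart: St3gal6 rose 3.03-fold, while St8sia4, which makes polysialic acid, fell from 166, 151 and 139 to 80.5, 85.8 and 81.4 CPM. Of 30 ATF4 targets 10 rose and 6 fell (6 and 9 with library totals). Among them Gdf15, a stress-induced cytokine, rose from 7.81, 6.36 and 8.19 to 18.6, 29.6 and 21.6 CPM at rest, and its log2 fold change after LPS was -0.50 (difference -2.14, edgeR adjusted p = 8.66e-05). Itgb3, the beta 3 integrin chain, rose 2.8-fold and its partner Itgav 1.68-fold, whereas Itgam, the CD11b chain, fell 1.33-fold.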
